A study of Drosophila melanogaster with 4 samples.

Results

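The Hox complexes of Drosophila melanogaster are 2 gene clusters on chromosome arm 3R, and they were taken here as the enriched regions of H3K23ac that overlapped either of them in chromatin from adult heads. The Antennapedia complex was set at 2.48 to 2.83 Mb and the bithorax complex at 12.48 to 12.80 Mb of 3R, on FlyBase release 5, the build named in the file headers. The complexes held 3 of the 9467 regions of ChIP replicate 1, 6 of the 9142 regions of replicate 2 and 36 of the 16244 regions of the list that the authors made for the whole series. The limits are positions, but the complexes were selected on covered shares and region counts of these lists that were already known. Those values are therefore described beside those of the rest of 3R, with no test.

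H3K23ac, an acetylated lysine of histone H3, was profiled by ChIP-seq, the sequencing of immunoprecipitated chromatin, in head nuclei of wild-type Oregon-R flies. Stage is labelled mixed adult, heads were separated from whole flies with sieves, and neither the age nor the sex of the flies is given in the labels. The 4 samples were 2 ChIP samples and 2 inputs, the unenriched chromatin of each. Lists of regions were analysed for both ChIP samples and for the series; inputs were not analysed here. Whether the replicates came from separate fly collections is not labelled, and their spread may be technical only. No source used here gives read numbers, which leaves the depth unknown.

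Hox genes encode homeodomain transcription factors that give the body segments their identity, and they lie on the chromosome in about the order in which they act along the body. In cells where a Hox gene is off, Polycomb group proteins keep it silent over long domains marked by methylation of another lysine of histone H3, and Trithorax group proteins maintain it where it is on. Histone acetylation is generally found at active promoters and enhancers. The RefSeq gene table, which uses release 6 of the genome, was used only for names and order. It held all 8 genes on 3R, in the order lab, pb, Dfd, Scr and Antp, then Ubx, abd-A and Abd-B. The limits of Ubx, abd-A and Abd-B used here are approximate positions on release 5. The genes of the Antennapedia complex were not given limits, and its regions are described by position. Markers of head cell types were not placed on release 5 either, so the labelled tissue was not checked. A head contains neurons, photoreceptors, glia, muscle and fat, and bulk chromatin cannot tell a mark in few cells from a weak mark in many.

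The bithorax complex carried no H3K23ac region in either replicate. Its covered share was 0% in replicate 1 and 0% in replicate 2, against 24.3% and 24.0% of 3R outside the complexes. The mean was 0% ± 0 (SD, n = 2), against 24.2% ± 0.223 in the rest of the arm. Every base of the 320 kb was thus outside the regions of both lists. Windows of 320 kb were taken every 10 kb along 3R, leaving out those that overlapped the complex, and neighbouring windows share most of their sequence. None of the 2696 windows was without a region, 0% in each replicate. The least covered of them had 0.962% in replicate 1 and 2.63% in replicate 2, and the medians were 23.1% and 22.5%. In both replicates these lowest values were reached over the Antennapedia complex, the other cluster described here, and not over other parts of the arm.

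The unmarked stretch over the bithorax complex was the longest on 3R in both replicates. It ran from 12458094 to 12804831 in replicate 1, over 346738 bp, and from 12456093 to 12843138 in replicate 2, over 387046 bp. Neighbouring regions of 3R lay a median of 3163.5 bp apart in replicate 1, and 3168 bp apart in replicate 2. The next longest stretches of 3R were 232682 bp in replicate 1, a stretch that reaches into the Antennapedia complex, and 145571 bp in replicate 2. Among the stretches between regions on arms 2L, 2R, 3L, 3R and X, the bithorax stretch ranked 5 in replicate 1 and 2 in replicate 2.

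The edges of this stretch lay outside the complex on both sides. Towards lower coordinates the last region before the complex ended 21907 bp from the limit in replicate 1 and 23908 bp in replicate 2, with edges 2001 bp apart. These regions had scores of 0.67 in replicate 1 and 0.60 in replicate 2. The score is the authors' own for each region. It behaves as the log2 of a ratio with an unknown zero point, so it was compared only within a list. On the other side the first region began 4831 bp beyond the limit in replicate 1, with a score of 0.51, and 43138 bp beyond it in replicate 2, with a score of 0.48. The lower edge was therefore placed much more alike in the replicates than the upper edge, where the edges were 38307 bp apart. In the 100 kb next to the complex, the lower side was covered over 25.4% in replicate 1 and 24.0% in replicate 2, and the upper side over 13.9% and 8.09%.

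**Figure D1:**
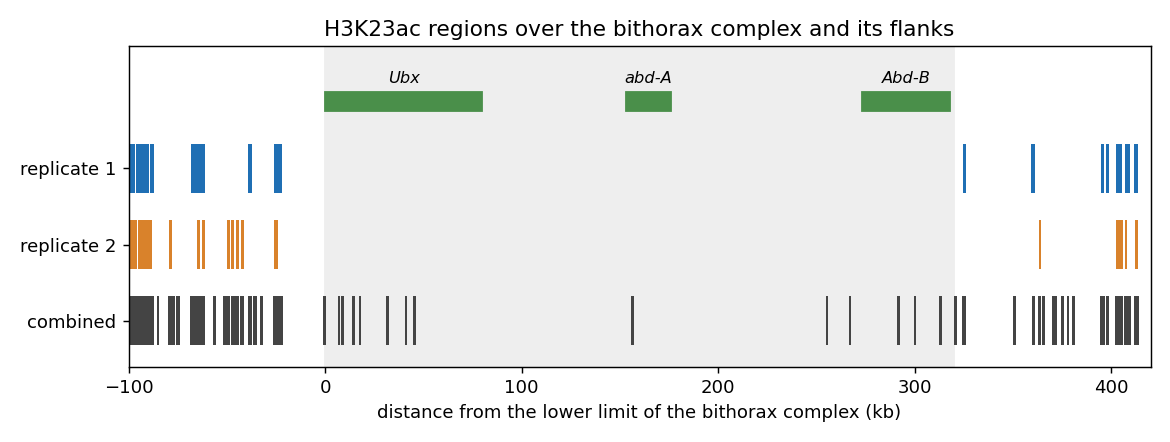
H3K23ac regions over the bithorax complex and 100 kb on either side, with distance from the lower limit of the complex in kb on the horizontal axis and the lists of replicate 1, replicate 2 and the series (combined) as rows. Grey shading marks the complex and green bars the approximate spans of Ubx, abd-A and Abd-B; the shaded area holds 0 replicate regions and 14 combined regions, 8 of them over Ubx.

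Ubx, which sets the identity of the posterior thorax and the haltere, had 0 regions over its 80 kb in both replicates. Windows of that length with no region made up 2.31% of the windows of 3R in replicate 1 and 2.78% in replicate 2. abd-A, which patterns the abdominal segments, had 0 regions over its 23 kb. So short an unmarked stretch was common, at 18.2% of windows in replicate 1 and 18.6% in replicate 2. Abd-B, the gene of the posterior abdomen and genitalia, had 0 regions over its 45 kb, against 7.38% and 7.63% of windows with none. Windows with no region were thus most common at the length of abd-A. These windows overlap each other, so their shares do not count separate places. They also include windows over the rest of the bithorax complex and over the Antennapedia complex.

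The stretches between the genes hold the bxd and iab regulatory regions, which contain enhancers, insulators and Polycomb response elements. The 73 kb between Ubx and abd-A had 0 regions in both replicates, and 2.71% and 3.18% of 3R windows of that length had none. The 97 kb between abd-A and Abd-B also had 0 regions, against 1.41% and 1.52% of windows with none. Genes and the DNA between them did not differ in this measure, as all values were 0.

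The combined list did hold regions in the bithorax complex. It had 14 there, covering 5.47% of the complex, against 50.4% of 3R outside the complexes. None of the 2696 windows of 3R (0%) was covered as little. The least covered had 10.3%, a value again reached over the Antennapedia complex, and the median was 50.0%. The bithorax complex held 4.38 combined regions per 100 kb, against 15.1 in the rest of 3R. Each of the 3 genes had at least 1 combined region. As the replicates had 0 regions in the complex, none of the 14 could overlap one. Over 3R, 57.7% of combined regions overlapped a region of either replicate. No source used here says how the authors combined the replicates, and the values of this list carry no SD or n.

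Within the complex, combined regions were gathered over one side of Ubx. Ubx had 8 of the 14, all in its lower part, the last ending at 12526224. These 8 lay within the first 46.2 kb of the complex, 14.4% of its length, of which they covered 21.7%. Ubx as a whole was covered over 12.6%, and 3.18% of 3R windows of its length were covered no more. As background, Ubx is transcribed towards lower coordinates, so its start lies at the other end of its span. The first of the 8, at 12479132 to 12480474, crossed the limit of the complex. The region with the highest score of the complex was at 12520458 to 12521516, 1059 bp wide with a score of 0.47. It was followed by 12487936 to 12489746 at 0.45 and 12511128 to 12512518 at 0.45, also over Ubx. The widest was 12493474 to 12495294, at 1821 bp.

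The remaining 6 combined regions were sparse. abd-A had 1, at 12635564 to 12636960, with a score of 0.45, and was covered over 6.07%; 5.53% of 3R windows of its length were covered no more. Abd-B had 3, at 12771040 to 12772406, 12779902 to 12780916 and 12792476 to 12793692, with scores of 0.36, 0.42 and 0.34. It was covered over 8.00%, and 2.99% of windows were covered no more. The stretch between abd-A and Abd-B had 2 regions and 2.55% covered, with 0.145% of windows covered no more. Those windows, 4 of 2761, all lay in the bithorax complex and began within Ubx. The stretch between Ubx and abd-A had 0 regions in all 3 lists. In the combined list 0.108% of the windows of 73 kb, 3 of 2769, had none. These 3 windows lay in the bithorax complex itself, in its unmarked stretch from 12636961 to 12734741. Elsewhere on 3R no stretch between regions was longer than 60119 bp. The stretches between the genes had the lowest covered shares of the parts in the combined list. The windows as empty as they were came from the same complex and reached over Ubx or abd-A. Their window shares therefore do not set the DNA between the genes apart from the genes.

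Both of the longest unmarked stretches of 3R in the combined list lay in the bithorax complex. The longer ran from 12526225 to 12635563, over 109339 bp, and took in 42.2% of Ubx, the whole stretch to abd-A and 11.1% of abd-A. The other ran from 12636961 to 12734741, over 97781 bp, and took in 82.8% of abd-A and 81.2% of the stretch to Abd-B. A region of 1397 bp in abd-A separated them. The next stretch of 3R, elsewhere on the arm, measured 60119 bp, and the median of the list was 1239 bp. Only 1 other stretch in the complex exceeded 20 kb, at 12747589 to 12771039 and 23451 bp. In bins of 20 kb, 8 of the 16 bins of the complex had 0% covered in the combined list. All 16 had 0% in both replicates, which only restates that the complex had no replicate region. Windows of 20 kb were not taken along 3R. At 23 kb, the nearest length compared, 2.76% of windows had no region in the combined list, against 18.2% and 18.6% in the replicates.

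**Figure D2:**
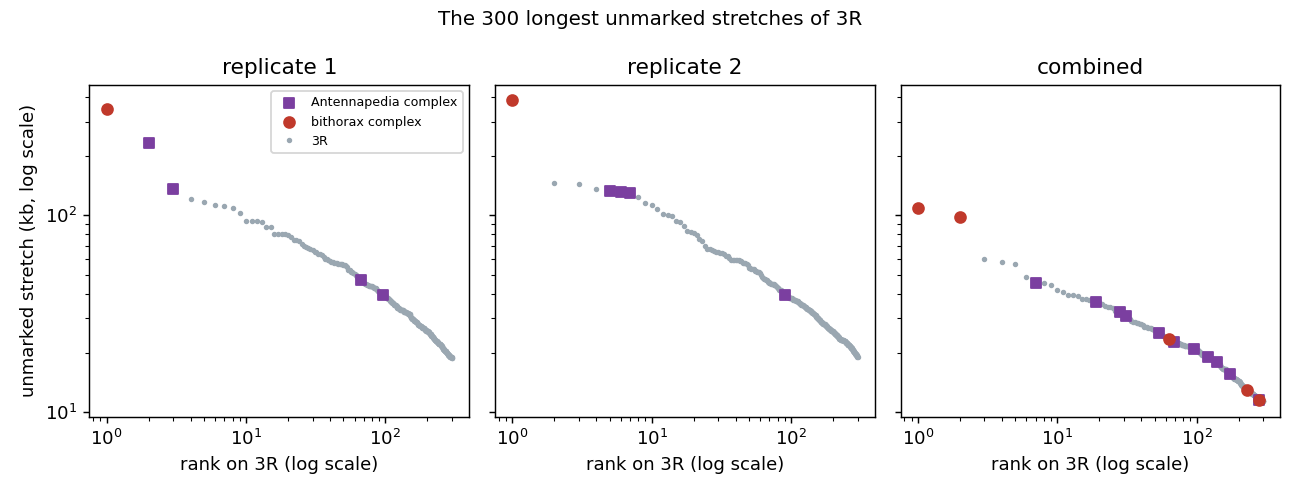
Length in kb of the 300 longest unmarked stretches of 3R against their rank, both on log scales, for replicate 1, replicate 2 and the combined list; circles are stretches in the bithorax complex, squares stretches in the Antennapedia complex and dots all stretches of 3R. The bithorax stretch of 346738 bp in replicate 1 and 387046 bp in replicate 2 stands first, and in the combined list the first ranks are the bithorax stretches of 109339 bp and 97781 bp.

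The Antennapedia complex, whose genes act in the head and the thorax, was nearly but not wholly unmarked. lab and pb act in the anterior head and the mouthparts, Dfd in the mandibular and maxillary segments, Scr in the labial segment and anterior thorax, and Antp in the thorax. The complex was covered over 1.45% in replicate 1, by 3 regions, and over 3.07% in replicate 2, by 6 regions. The mean was 2.26% ± 1.14, against 24.2% ± 0.223 in 3R outside the complexes (SD, n = 2), or 0.0936 ± 0.0480 of the share of the rest of the arm. The complex had 1.29 ± 0.606 regions per 100 kb, against 9.22 ± 0.125.

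Few stretches of 3R of that length were covered so little. Of 2687 windows of 350 kb, 8 were covered no more than the complex in replicate 1, or 0.298%, and 17 in replicate 2, or 0.633%. The medians over windows were 23.4% and 22.8%. All of these windows lay at a single place, 12.45 to 12.87 Mb in replicate 1 and 12.42 to 12.93 Mb in replicate 2, which is the bithorax complex and its edges. It follows that none was covered as little once the windows that overlap either complex were left out. That comparison was chosen after seeing the data. In the combined list the complex had 22 regions and 10.9% covered, and 14 windows, 0.521%, were covered no more, again at 1 place over the bithorax complex.

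**Figure D3:**
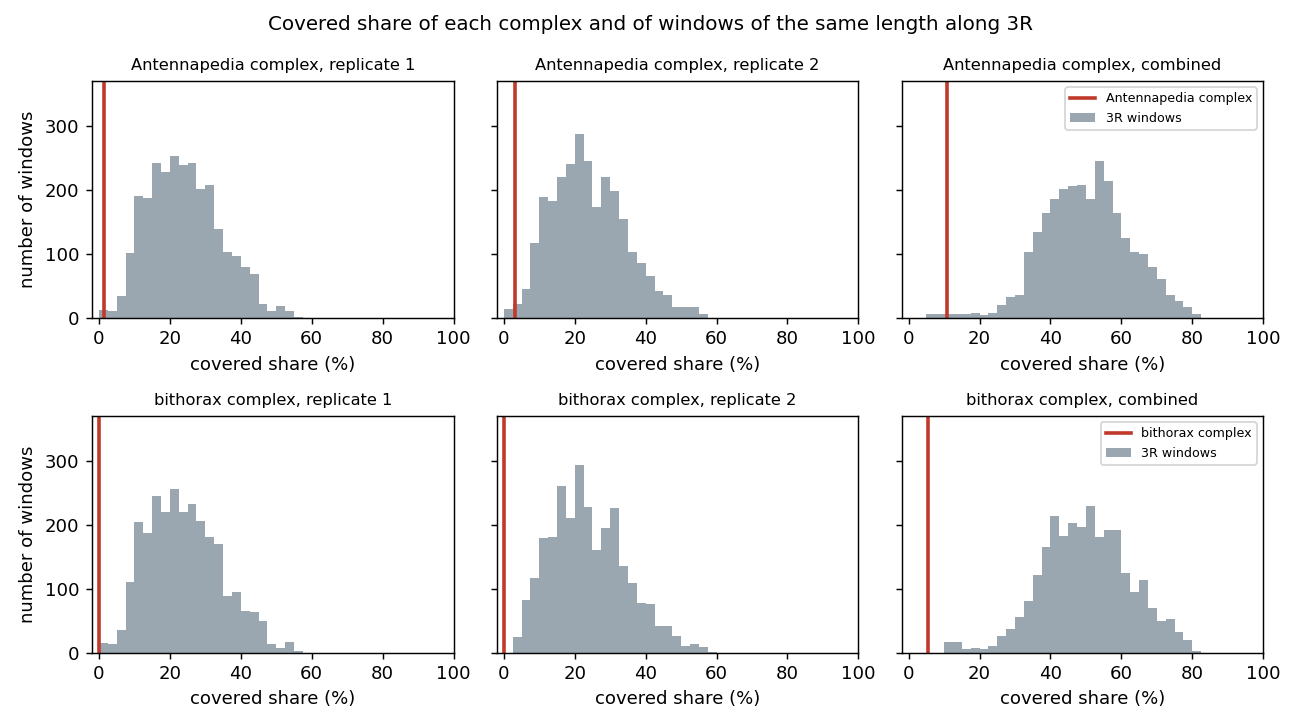
Number of windows of 3R by covered share in %, for windows of 350 kb (upper row) and 320 kb (lower row) taken every 10 kb, in replicate 1, replicate 2 and the combined list; the red line is the covered share of the complex. The Antennapedia complex lies at 1.45%, 3.07% and 10.9%, and the bithorax complex at 0%, 0% and 5.47%, at the low end of each distribution.

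Over all 5 large arms, other stretches were as empty, and many of them lay near arm ends. In replicate 1, 7 places on the arms had a window of 320 kb with no region, 5 of which reached into the outer 2 Mb of their arm. On 2L these lay at 21.31 to 21.67 and 22.16 to 23.01 Mb, and on 2R at 0 to 1.56 Mb. On 3L and X they lay at 22.98 to 24.54 Mb and 21.47 to 21.86 Mb. The others, away from arm ends, lay on 2L at 15.75 to 16.17 Mb and on 3L at 18.12 to 18.55 Mb. In replicate 2 there were 5 such places, and in the combined list 6 places were covered no more than the bithorax complex; all of these reached into the outer 2 Mb. For the Antennapedia complex, 11 places in replicate 1, 16 in replicate 2 and 12 in the combined list were covered no more. Of these, 5, 10 and 6 lay away from arm ends, and in each list they include the place over the bithorax complex. Those of replicate 2 also include places on X between 9.60 and 17.20 Mb, where replicate 1 had none. The cutoff was the covered share of the complex in each list, 1.45% in replicate 1 and 3.07% in replicate 2. The places of the 2 replicates were thus counted at unlike cutoffs and are not a measure of how the replicates differ.

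Of the regions of the Antennapedia complex, 1 place was marked in both replicates. It lay at 2502572 to 2504578 in replicate 1, 2007 bp wide, and at 2502543 to 2504854 in replicate 2, 2312 bp wide, so that all of the replicate 1 region lay within the region of replicate 2. lab is the Hox gene nearest to this end of the complex, but the region was not assigned to a gene. Its score was 0.57 in replicate 1, above 52.5% of the 3R regions of that list, and 0.67 in replicate 2, above 88.2%. The combined list had a region at 2502466 to 2504822 with a score of 0.56, the highest of either complex and above 95.0% of the 3R regions.

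The other regions of the complex were found in a single replicate. Replicate 1 had 2641090 to 2642460, with a score of 0.55, and 2689213 to 2690920, with a score of 0.68. Replicate 2 had 2635710 to 2637140, with a score of 0.58, then 2651115 to 2652851, 2655485 to 2657316 and 2657447 to 2658984, with scores of 0.46, 0.57 and 0.54, and 2789536 to 2791417, with a score of 0.54. Thus 1 of 3 regions of replicate 1 and 1 of 6 of replicate 2 overlapped the other list, against 69.6% and 71.3% of all 3R regions. All 9 overlapped a combined region, as did 99.7% of the 3R regions of each replicate. The replicates shared 2007 bp of the 13811 bp covered in either, a Jaccard index of 0.145, against 0.469 over 3R. Of the windows of 350 kb, 1.94% had an index as low. The index of the complex rests on only 3 and 6 regions, and windows with a covered share as low were not compared separately.

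Regions missing from the other list were not always far from one. The region of replicate 1 at 2641090 lay 3949 bp from the nearest of replicate 2. The 3 neighbouring regions of replicate 2 from 2651115 to 2658984 lay 8654 to 14986 bp from the nearest of replicate 1. By contrast, the regions at 2689213 and 2789536 lay 30228 bp and 98615 bp from any region of the other replicate.

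Regions lay most densely in the middle of the complex in replicate 2 and the combined list, but not in replicate 1. In bins of 50 kb, the bin from 2.63 to 2.68 Mb held 1 of the 3 regions of replicate 1, 4 of the 6 of replicate 2 and 8 of the 22 combined regions. It was covered over 2.74%, 13.1% and 31.9%. Of the 3R windows of 50 kb, 7.74%, 34.5% and 23.6% were covered no more, so this bin lay within the common range in replicate 2 and the combined list. The first bin, from 2.48 to 2.53 Mb, was covered over 4.01% in replicate 1 and 4.62% in replicate 2, with 12.8% and 14.4% of windows covered no more. The bins from 2.53 to 2.63 Mb and from 2.73 to 2.78 Mb had 0% in both replicates. Windows of 50 kb with no region made up 6.09% to 6.16% of those of 3R in replicate 1 and 6.52% to 6.59% in replicate 2. The bin from 2.68 to 2.73 Mb was covered in replicate 1 only, over 3.42%, and the last bin, from 2.78 to 2.83 Mb, in replicate 2 only, over 3.76%. No bin was empty in the combined list, where the least covered was that from 2.68 to 2.73 Mb at 3.94%.

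**Figure D4:**
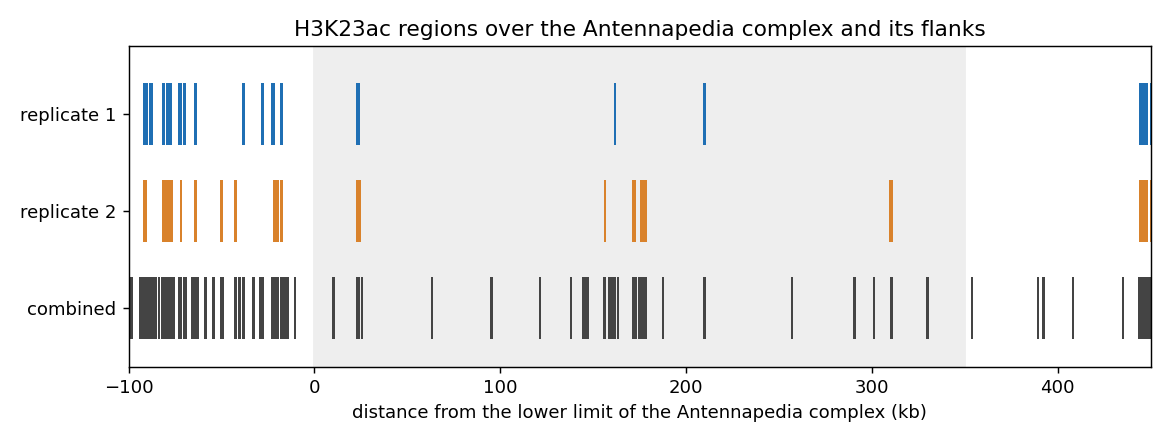
H3K23ac regions over the Antennapedia complex and 100 kb on either side, with distance from the lower limit of the complex in kb on the horizontal axis and the lists of replicate 1, replicate 2 and the series (combined) as rows. Grey shading marks the complex, which holds 3, 6 and 22 regions; the region near the lower limit is in all 3 lists, and the unmarked stretch of the replicates goes on beyond the upper limit.

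The replicates shared the place of the first long unmarked stretch of the complex. Nearly all of the second long stretch of replicate 1 was also unmarked in replicate 2, where a single region parted it. The first ran from 2504579 to 2641089 in replicate 1, over 136511 bp, and from 2504855 to 2635709 in replicate 2, over 130855 bp. These ranked 3 and 6 among the stretches of 3R. In replicate 1 a second stretch ran from 2690921 to 2923602, over 232682 bp, of which 139080 bp lay in the complex. Replicate 2 held 2 stretches over much of this part of the arm, 2658985 to 2789535 over 130551 bp and 2791418 to 2923797 over 132380 bp, parted by the region at 2789536. The longest stretches of the combined list in the complex were shorter, at 45533 bp from 2691001 to 2736533, 36275 bp from 2506273 to 2542547 and 32267 bp from 2737855 to 2770121.

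The unmarked stretch went on beyond the upper limit of the Antennapedia complex. The next region began 93602 bp past the limit in replicate 1, at 2923603 with a score of 0.78, and 93797 bp past it in replicate 2, at 2923798 with a score of 0.57, so the edges were 195 bp apart. In the combined list the next region began 3277 bp past the limit. The 100 kb above the limit were covered over 5.45% in replicate 1, 5.02% in replicate 2 and 12.4% in the combined list. Below the complex, the last region ended at 2463078 in replicate 1 and 2463045 in replicate 2, only 33 bp apart and 16922 and 16955 bp from the limit, with scores of 0.43 and 0.46. The 100 kb on that side were covered over 22.4%, 18.7% and 53.5%, near the shares of the rest of the arm, so the 2 sides of the complex differed.

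The scores of the few marked places were ordinary for the arm. In the Antennapedia complex the scores ranged from 0.55 to 0.68 in replicate 1, with a median of 0.57, and from 0.46 to 0.67 in replicate 2, with a median of 0.56. The medians of the rest of 3R were 0.57 and 0.56. The difference of medians was 0.0015 ± 0.0064 on the log2 scale (SD, n = 2), smaller than the spread between replicates, and it rests on 3 and 6 regions. In the combined list, 10 of 22 regions of the Antennapedia complex and 7 of 14 of the bithorax complex scored above the median of the rest of 3R, 0.39. Their medians were 0.37 and 0.40.

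Combined regions of the complexes were narrow. The median width was 1377 bp in the Antennapedia complex and 1265 bp in the bithorax complex, against 1999 bp in the rest of 3R. The widest region of the bithorax complex, 1821 bp, was wider than 42.8% of the combined regions of 3R. The widest of the Antennapedia complex were 2637986 to 2642446, at 4461 bp and wider than 81.3%, and 2624190 to 2627708, at 3519 bp. Both lay in or beside the bin from 2.63 to 2.68 Mb, and the wider one overlapped a region of replicate 1. In the Antennapedia complex, 8 of 22 combined regions overlapped a replicate region, or 36.4%, against 57.7% over 3R; 1 of them overlapped both replicates, against 30.2% over 3R. The covered share of this complex in the combined list was 7.51 times that of replicate 1 and 3.56 times that of replicate 2, against 2.07 and 2.10 times in the rest of 3R.

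**Figure D5:**
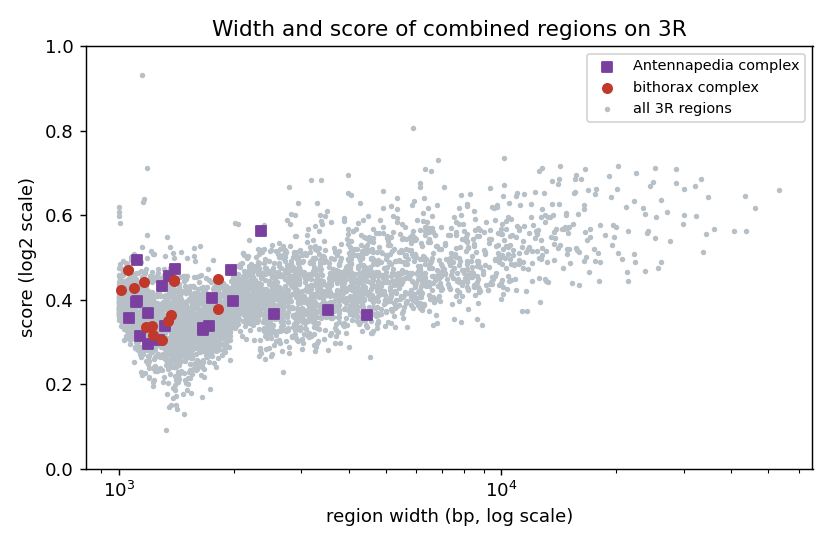
Score (log2 scale) against width (bp, log scale) of the combined regions of 3R, with those of the Antennapedia complex as squares, those of the bithorax complex as circles and all regions of 3R as dots; 4 regions with a score above 1 are not drawn. The bithorax regions lie between 1015 and 1821 bp with scores of 0.30 to 0.47, and the highest square is the Antennapedia region of 2357 bp at 0.56.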

How the data were processed

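The authors deposited enriched regions of each ChIP replicate as a list, and a combined list. Bowtie 0.12.7 was used, per the submitters' processing notes; no source used here names the peak caller, its threshold or read filters. Coordinates are 1-based on FlyBase release 5, per the file headers. The deposited score has no stated unit and was read as a log2 value: relative to the most frequent score of its list, 2 to the power of the score was a quotient of integers (within 1e-12 of the value, denominator at most 20000) for 100%, 100% and 99.6% of regions.

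Covered shares, unmarked stretches, overlaps (at least 1 bp), Jaccard indices and ranks among windows of equal length every 10 kb were computed with Python 3.11.15, numpy 2.4.6 and pandas 2.3.3, and checked on simulated intervals. Figures used matplotlib 3.10.9. Windows overlapping the complex or part compared were left out. For a part, windows over the rest of its complex and over the other complex were kept. The members, limits and lists were chosen with earlier results of these data known. By rule, the text named each replicate region of the bithorax complex if there were 12 or fewer in a list, otherwise the 5 widest and 5 highest-scoring of each complex, the 3 longest stretches, the regions next to each limit, and bins of 50 and 20 kb; only some of these are printed, and the combined regions of Abd-B were added after their values were seen. No sequence is printed, as no genome of release 5 was used here.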

Additional observations from a re-analysis of the deposited data

How the results depend on the processing

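Of the values under alternatives, 90 moved by less than the spread between replicates or not at all. Another 30 were counted as moved, and 4 changed sign. Jaccard indices have no spread between replicates, so any change in them was counted as moved. The spread of the bithorax values was 0, so any change counted there too. The covered share of the bithorax complex and its 5 parts was 0% under every alternative with the replicate lists except 1. Filtering or merging regions, dropping a replicate or moving limits inwards could not add coverage where there were 0 regions. Limits of the parts moved by 5 kb stayed inside the unmarked stretch. These 0% values are among the 90 and were fixed in advance, so they do not measure stability. With limits 20 kb further out, the complex had 0.186% covered, 0.139 regions per 100 kb and a longest stretch of 352416 bp. With limits 20 kb further in, its longest stretch was 280000 bp by construction. In the combined list the complex had 5.47% covered, 4.38 regions per 100 kb and a longest stretch of 109339 bp, with 12.6% of Ubx, 6.07% of abd-A, 2.55% of the stretch between abd-A and Abd-B and 8.00% of Abd-B covered. For the Antennapedia complex, scores above the list median gave 0.779% covered, 0.429 regions per 100 kb, a longest stretch of 201036 bp and a Jaccard index of 0. Regions of at least 2000 bp gave 0.617%, 0.286 regions per 100 kb, 325284 bp and 0.868, since 1 region was left in each list. The combined list gave 10.9%, 6.29 regions per 100 kb and 45533 bp. Limits 20 kb further out gave 144968 bp and an index of 0.207, and merging regions under 1000 bp apart an index of 0.144.

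The mean percentage of windows covered no more than the Antennapedia complex, 0.465%, became 4.61% over windows of 2L, 2R, 3L and 3R. Without windows that overlap either complex, an alternative chosen after seeing the data, it was 0%. With windows that do not overlap each other it was also 0%. Such windows are far fewer than those every 10 kb, so they cannot resolve so small a percentage. For the bithorax complex, 0% became 3.42% over those 4 arms and 0.371% with regions of at least 2000 bp. The score difference of the Antennapedia complex changed sign, being near 0: it was -0.0138 with limits further out, -0.0214 in the combined list, -7.7e-06 with merging, and 0.0060 or -0.0031 with a single replicate. Unless stated, the cause was not tested. Without replicate 1 or replicate 2, the covered share of the Antennapedia complex was 3.07% or 1.45%; by construction this stays within the SD of 2 replicates. Score differences and Jaccard indices of the bithorax complex could not be computed, as it had 0 replicate regions.

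No paired analysis was possible because the inputs, which share replicate numbers with the ChIP samples, were not analysed here. Depth is unknown, so a weak mark under the authors' threshold cannot be told from no mark.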
